A study of Mus musculus with 18 samples.

Results

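The population described is the effector regulatory T cell (TR) that carries the Id3 reporter, called Id3+ eTR, and the question put to it was which genes stood above or below the mean of the other sorted TR populations. It supplied 6 of the 18 libraries. The comparison took, for every gene, log2 expression in Id3+ eTR minus the mean log2 expression of Id3- eTR and Id3+ cTR, in spleen, in lymph node and averaged over both tissues. Every gene with enough counts entered it, 12445 of the 37991 in the table, so no gene was chosen by its values.

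Each library was made from 500 sorted CD4+ cells of C57BL/6 mice in which GFP reports Id3 and mRFP reports Foxp3, and 3 littermates (84, 86 and 87) each gave all populations from both spleen and peripheral lymph node. Id3+ eTR were sorted as Id3+ with low CD62L and high CD44. Id3- eTR were sorted on absence of the Id3 reporter, with no CD62L or CD44 gate in their label. Id3+ cTR, the central TR, were sorted as Id3+ with high CD62L and low CD44. This gave 6 groups of 3 libraries, 1 per mouse, all carrying both reporters. Unless the mouse is named as a block, p-values treat the libraries of a mouse as independent. They measure the spread between libraries of the same group, which come from different mice of 1 litter.

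TR are CD4+ T cells that express the transcription factor Foxp3 and restrain immune responses. Central TR recirculate through lymphoid organs, and effector TR have responded to antigen and can take up residence in tissues or enter B cell follicles as follicular TR. Id3 belongs to the Id proteins, which lack a DNA-binding region and hold back E proteins, the factors that bind CANNTG motifs (E-boxes). In the series the Id3+ eTR are placed as a step between central TR and effector TR that have lost Id3. A gene that changes steadily along such a path has an Id3+ eTR level near the middle of the other populations, and the contrast with the mean picks out genes that do not.

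Library totals ran from 2111016 to 3153325 counts in Id3+ eTR, from 2164402 to 2853467 in Id3- eTR and from 1600782 to 2988373 in Id3+ cTR. The spleen Id3+ eTR library of mouse 84 stood apart: it differed from its partners by 20.6 and 20.8 times the counting variance, against at most 7.76 times between any other replicates. The spleen Id3+ cTR libraries of mice 84 and 87 had the lowest totals, 1600782 and 1684461 counts. By the same measure they did not stand apart from their partners (4.16 to 5.81 times). Results are also given without these 3 libraries. That leaves only the library of mouse 86 in spleen Id3+ cTR and those of mice 86 and 87 in spleen Id3+ eTR. In calls lost there, the part of these libraries and that of fewer replicates cannot be told apart. Of 9 marker genes of T cells or TR (Cd3e, Cd3d, Cd3g, Cd4, Trac, Foxp3, Il2ra, Ctla4 and Ikzf2), none was called in the averaged contrast. Each was detected in all 18 libraries. No call against the mean of both others does not mean that the levels were equal. Foxp3 lay between 237 and 374 CPM (counts scaled to a common library total, with TMM normalization) in Id3+ eTR, between 254 and 308 in Id3- eTR and between 262 and 308 in Id3+ cTR. Ikzf2 lay between 512 and 849 CPM in Id3+ eTR, between 869 and 1030 in Id3- eTR and between 443 and 636 in Id3+ cTR. Ctla4 lay between 473 and 712 CPM in Id3+ eTR, between 649 and 828 in Id3- eTR and between 408 and 525 in Id3+ cTR.

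The genes of the sort followed the gates that the labels give and are no finding. For Cd44 in Id3- eTR the labels give no gate. Id3 lay between 204 and 304 CPM in Id3+ eTR, between 45.3 and 83.7 in Id3- eTR and between 244 and 306 in Id3+ cTR. Cd44 lay between 115 and 248 CPM in Id3+ eTR, between 188 and 359 in Id3- eTR and between 45 and 106 in Id3+ cTR. Of 6 E and Id protein genes tested, Id3 alone was called in the averaged contrast. Id2 was at -0.23 ± 0.09 (log2 contrast ± SE) and the E protein gene Tcf3 at 0.55 ± 0.23 (edgeR adjusted p = 0.214 and 0.245).

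Averaged over the tissues, 346 genes (2.78% of those tested) were higher in Id3+ eTR than the mean of both others and 105 (0.844%) were lower, 3.62% together, by edgeR's quasi-likelihood test at a Benjamini-Hochberg adjusted p under 0.05. The higher genes had the larger contrasts, with a median of 1.17 on the log2 scale against -0.41 for the lower genes and 0.03 for all genes tested. In sorted pools, fewer cells of a type and less RNA per cell cannot be told apart. The sign was the same in all 6 sets of 1 mouse and 1 tissue for 274 of the 346 higher genes and 82 of the 105 lower genes. These sets are the libraries that gave the calls, so the shared sign follows in part from the call and is no separate support. Without the 3 libraries above, 240 genes were higher and 63 lower, and 233 of the 451 calls were shared.

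A gene can pass this test in several ways, and the 346 higher genes were mostly those called against 1 of the other populations and not against the other. Against each population separately (9.84% of all genes were called against Id3+ cTR, 6.82% above it, and 7.95% against Id3- eTR, 3.96% above it), 178 of the 346 were above Id3+ cTR and not called against Id3- eTR. Their median difference was 2.82 on the log2 scale from Id3+ cTR and 0.09 from Id3- eTR. Another 78 were above Id3- eTR and not called against Id3+ cTR, with medians of 1.60 and 0.35. Both differences were called upward for 50 genes, with medians of 1.13 against Id3+ cTR and 1.04 against Id3- eTR. Between the others on the log2 scale lay 29 genes that were above Id3+ cTR and below Id3- eTR and 9 that were below Id3+ cTR and above Id3- eTR, and 2 were called against neither.

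The 105 lower genes divided differently. Below both populations lay 22 genes, below Id3- eTR only 45 and below Id3+ cTR only 34 (3.01% of all genes were called below Id3+ cTR and 3.99% below Id3- eTR). The remaining 4 were Gna15, a G protein subunit called above Id3+ cTR, and S1pr1, Satb1 and Stk38, called above Id3- eTR. Gna15 and Stk38 are named for the small count, after their values were seen, and Stk38 was not called with the mouse as a replicate block (adjusted p = 0.0688). Leaving out the lymph node Id3+ eTR library of mouse 86 or 87 brought the 50 genes above both to 30 or 32, and without the 3 libraries they were 26.

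**Figure D1:**
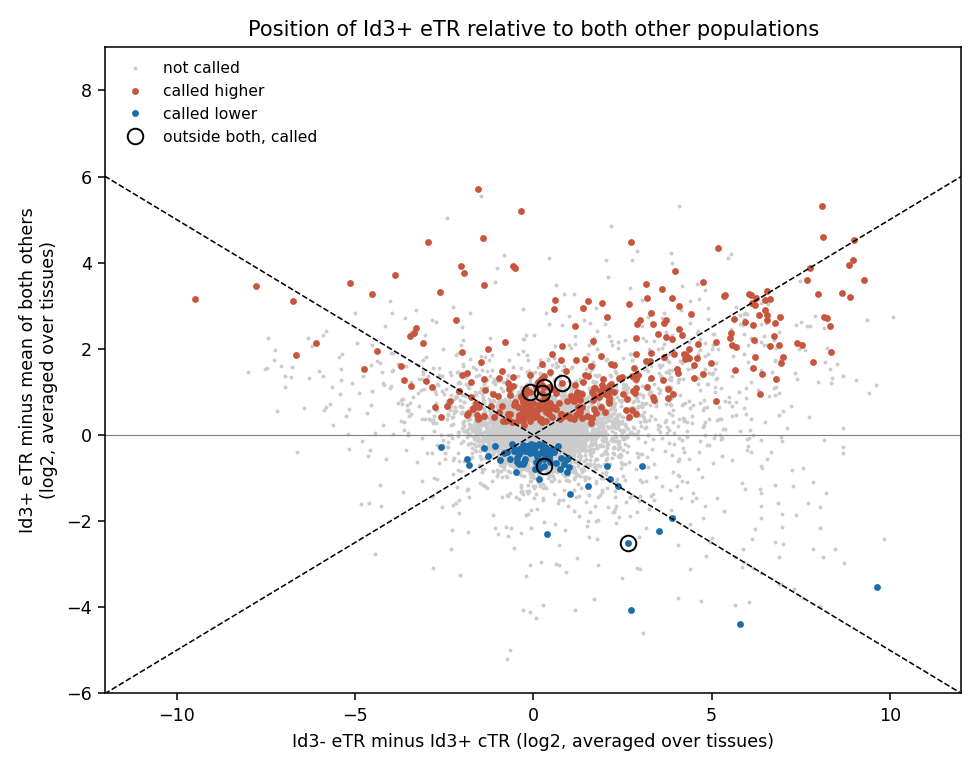
Each point is 1 tested gene; the horizontal axis is Id3- eTR minus Id3+ cTR and the vertical axis is Id3+ eTR minus the mean of both others, both in log2 and averaged over the tissues. Dashed lines mark where Id3+ eTR equals 1 of the others, so points above the upper V or below the lower V lie outside both; the 346 higher genes (red) reach far along both arms of the upper V, the 105 lower genes (blue) mostly lie near the centre, and circles mark 6 genes called outside both. The axes share the libraries of Id3- eTR and Id3+ cTR.

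The mean of log2 values lies below the arithmetic mean for a gene that differs widely between the other populations, so an Id3+ eTR level can lie above the first and below the second. The part of this in the larger number of higher genes was not tested. Of the 346 higher genes, 236 had more than 1 log2 unit between Id3- eTR and Id3+ cTR, against 19 of the 105 lower genes. Set against the arithmetic mean of CPM instead, 314 of the 346 higher genes (90.8%) were still above it and 105 of the 105 lower genes below it. Of the 29 genes above Id3+ cTR and below Id3- eTR, only 8 were above the arithmetic mean.

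A stricter test asked for Id3+ eTR to lie outside both other populations in the same direction, taking the larger p of the separate edgeR tests and adjusting it over all genes. Averaged over the tissues, 4 genes were above both (0.0321% of those tested) and 2 below both (0.0161%), 0.0482% together. They were Tbc1d4, Ptger2, Plxnc1 and Ccdc50 above, and Neb and Ly6a below. At an unadjusted p under 0.05 there were 345. The called genes were picked from these same libraries. The rule that names them also asked for Id3+ eTR to lie outside both other libraries of its mouse in each tissue. The lack of overlap given for them below thus follows largely from how they were picked and is no further support.

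The promoters of the 4 genes above both are shown because E proteins, which Id3 restrains, bind E-boxes. They are 300 bases around the RefSeq start of each gene in mouse GRCm38.p6, 5′ to 3′ on the gene's strand, matched by symbol for 4 of the 6 genes. Tbc1d4 lies at chr14:101609142-101609441 on the minus strand, Ptger2 at chr14:44987861-44988160 on the plus strand, Plxnc1 at chr10:94944796-94945095 on the minus strand and Ccdc50 at chr16:27388706-27389005 on the plus strand. Capitals mark CANNTG, which reads the same on either strand, with overlapping matches allowed.
Tbc1d4: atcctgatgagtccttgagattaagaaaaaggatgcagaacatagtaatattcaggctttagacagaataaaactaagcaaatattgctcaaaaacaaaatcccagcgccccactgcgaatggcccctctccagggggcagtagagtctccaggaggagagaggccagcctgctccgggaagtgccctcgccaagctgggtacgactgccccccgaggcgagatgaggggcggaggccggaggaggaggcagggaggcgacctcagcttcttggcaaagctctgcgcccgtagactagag
Ptger2: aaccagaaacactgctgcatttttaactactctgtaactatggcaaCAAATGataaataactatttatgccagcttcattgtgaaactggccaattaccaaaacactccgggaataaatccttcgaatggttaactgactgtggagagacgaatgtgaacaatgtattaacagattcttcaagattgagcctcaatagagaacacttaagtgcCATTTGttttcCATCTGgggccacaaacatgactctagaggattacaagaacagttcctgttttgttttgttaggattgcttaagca
Plxnc1: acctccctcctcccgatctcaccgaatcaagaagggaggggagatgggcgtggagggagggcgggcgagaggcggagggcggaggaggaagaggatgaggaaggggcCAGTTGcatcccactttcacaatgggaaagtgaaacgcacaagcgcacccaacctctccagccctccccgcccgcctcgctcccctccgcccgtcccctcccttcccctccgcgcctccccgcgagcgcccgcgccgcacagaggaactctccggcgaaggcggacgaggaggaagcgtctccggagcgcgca
Ccdc50: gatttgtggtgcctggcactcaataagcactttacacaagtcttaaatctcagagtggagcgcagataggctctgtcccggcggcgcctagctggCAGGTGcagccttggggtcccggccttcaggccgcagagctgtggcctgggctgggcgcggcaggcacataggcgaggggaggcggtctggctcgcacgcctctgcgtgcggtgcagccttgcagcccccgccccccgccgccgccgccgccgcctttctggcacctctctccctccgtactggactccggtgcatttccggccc
Ptger2 held 3 matches, Plxnc1 and Ccdc50 1 each, and Tbc1d4 none. Of all 32851 promoters of this length 72.3% held at least 1 match, and of the 11276 promoters of tested genes 63.7% did, so the motif is common and 3 of 4 is near that share.

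Tbc1d4 encodes a Rab GTPase-activating protein known from insulin-driven glucose transporter traffic in muscle and fat. Spleen Tbc1d4 stood at 316, 316 and 290 CPM in Id3+ eTR, at 242, 157 and 199 in Id3- eTR and at 125, 165 and 142 in Id3+ cTR. Lymph node Tbc1d4 stood at 442, 417 and 401 CPM in Id3+ eTR, at 146, 177 and 182 in Id3- eTR and at 178, 125 and 157 in Id3+ cTR. No Id3+ eTR library overlapped any library of the other populations in its tissue. It was 1.27 log2 units above Id3+ cTR and 0.97 above Id3- eTR, with an adjusted p of 0.00115 for both together in edgeR, and among the 6 genes it alone kept its call with each library left out in turn, without the 3 libraries and with the mouse as a block.

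Ptger2 encodes a receptor for prostaglandin E that raises cyclic AMP. Spleen Ptger2 stood at 166, 208 and 198 CPM in Id3+ eTR, at 137, 133 and 122 in Id3- eTR and at 76.1, 80.7 and 69.1 in Id3+ cTR. Lymph node Ptger2 stood at 181, 196 and 196 CPM in Id3+ eTR, at 103, 57 and 110 in Id3- eTR and at 59.8, 40 and 55.4 in Id3+ cTR. Id3+ eTR were highest in both tissues without overlap, with Id3- eTR second. The smaller of its differences was 0.81 log2 units, from Id3- eTR (edgeR adjusted p = 0.0439 for both together).

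Plxnc1 encodes a plexin, a receptor for semaphorins. Spleen Plxnc1 stood at 96.2, 114 and 93.3 CPM in Id3+ eTR, at 63.3, 48 and 74.4 in Id3- eTR and at 33.8, 44.8 and 44.4 in Id3+ cTR. Lymph node Plxnc1 stood at 121, 116 and 114 CPM in Id3+ eTR, at 70, 61.4 and 43.8 in Id3- eTR and at 50.3, 74.7 and 61.4 in Id3+ cTR. Its contrast with the mean was 0.98 ± 0.12 on the log2 scale, and Id3+ eTR overlapped neither population in either tissue. The smaller difference, from Id3- eTR, was 0.85 (edgeR adjusted p = 0.0439).

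Ccdc50 encodes a coiled-coil protein. Lymph node Ccdc50 stood at 147, 134 and 143 CPM in Id3+ eTR, at 49.1, 42 and 42.4 in Id3- eTR and at 68.5, 72.8 and 50.1 in Id3+ cTR. Spleen Ccdc50 stood at 111, 132 and 96.4 CPM in Id3+ eTR, at 96.8, 105 and 54.2 in Id3- eTR and at 75.4, 51.5 and 72.1 in Id3+ cTR, where Id3+ eTR and Id3- eTR overlapped while in lymph node Id3+ eTR stood clear of both. Its differences were 0.96 from Id3+ cTR and 1.04 from Id3- eTR (edgeR adjusted p = 0.0439 for both together). The pseudogene Ccdc50-ps, counted apart, had an averaged contrast of 0.74, and reads of the pair may be split between them, so both values are uncertain.

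Below both, Neb encodes nebulin, a giant thin-filament protein of skeletal muscle. Spleen Neb stood at 58.6, 87.1 and 89.4 CPM in Id3+ eTR, at 695, 598 and 757 in Id3- eTR and at 148, 125 and 171 in Id3+ cTR. Lymph node Neb stood at 56.4, 81.9 and 23.5 CPM in Id3+ eTR, at 1270, 1230 and 1280 in Id3- eTR and at 138, 137 and 163 in Id3+ cTR. The gene was highest in Id3- eTR and lowest in Id3+ eTR, by 3.84 log2 units from Id3- eTR and 1.18 from Id3+ cTR (edgeR adjusted p = 0.0439 for both together). Id3+ eTR overlapped neither population in either tissue.

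Ly6a encodes Sca-1, a lipid-anchored surface protein of stem cells and activated lymphocytes. Spleen Ly6a stood at 161, 214 and 191 CPM in Id3+ eTR, at 315, 389 and 312 in Id3- eTR and at 337, 244 and 313 in Id3+ cTR. Lymph node Ly6a stood at 177, 189 and 183 CPM in Id3+ eTR, at 348, 319 and 339 in Id3- eTR and at 264, 227 and 272 in Id3+ cTR. Id3+ eTR were lowest in both tissues without overlap, by 0.57 log2 units from Id3+ cTR and 0.86 from Id3- eTR (edgeR adjusted p = 0.0439 for both together).

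The calls of the genes other than Tbc1d4 lay close to the threshold. With the mouse as a replicate block the adjusted p was 0.0655 for Ccdc50, 0.068 for Ptger2, Neb and Ly6a and 0.0841 for Plxnc1, and without the 3 libraries it was between 0.214 and 0.696, while every difference kept its sign. Leaving out single libraries gave between 1 and 8 genes, and fewer than 4 in 15 of the 18 cases. Just past the threshold on the other side were Lrmp, Gucy1a1 and Tspan3, each at an adjusted p of 0.0548 (Lrmp and Tspan3 named after their values were seen).

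**Figure D2:**
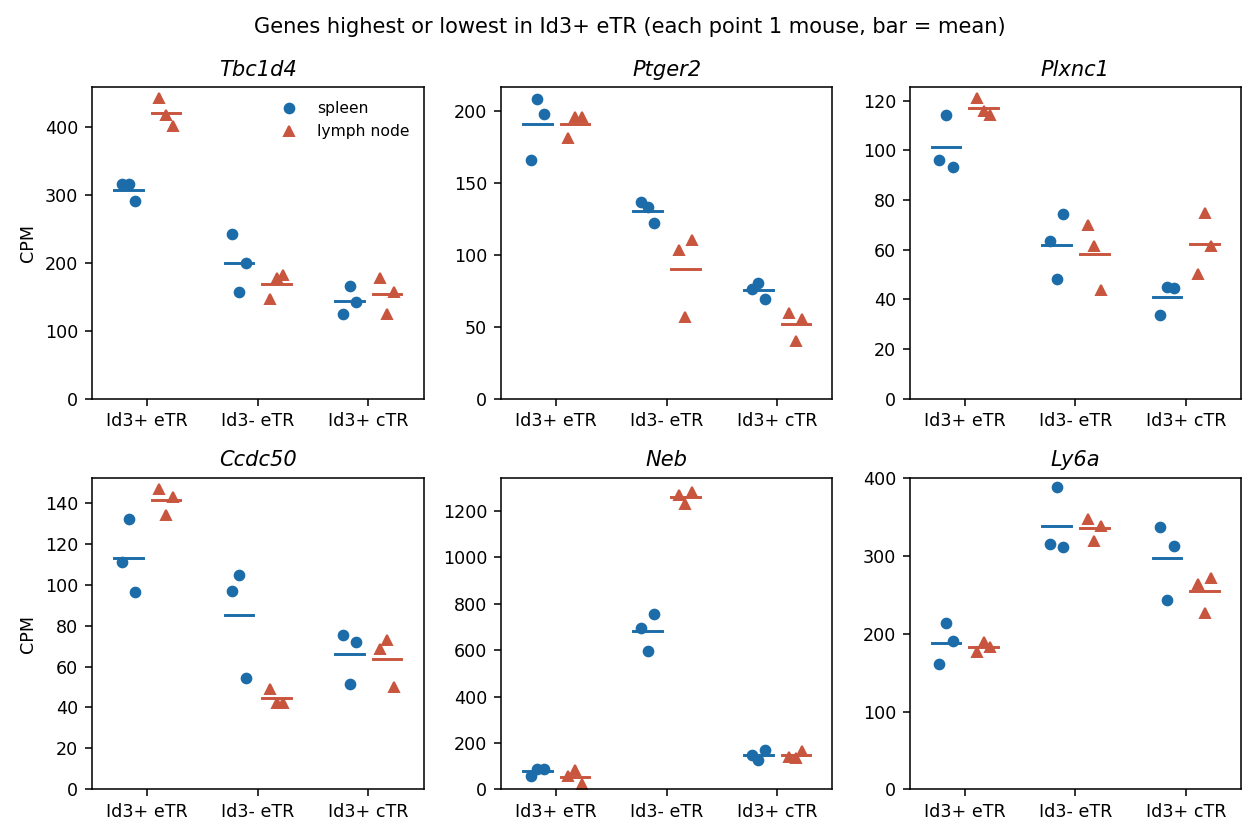
CPM (linear axis from 0) of the 6 genes called outside both populations, in Id3+ eTR, Id3- eTR and Id3+ cTR, with spleen as circles and lymph node as triangles; each point is 1 mouse and each bar the mean of 3. Tbc1d4, Ptger2 and Plxnc1 are highest and Neb and Ly6a lowest in Id3+ eTR in each tissue with no overlap, while Ccdc50 overlaps between Id3+ eTR and Id3- eTR in spleen.

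Taken one tissue at a time, the stricter test called 0 genes in spleen (321 at an unadjusted p under 0.05, with 1 called by DESeq2 and 0 by limma-voom) and 3 in lymph node, where 2 were above both (0.0161%) and 1 below both (0.00804%), 0.0241% together. Above both in lymph node were Tbc1d4 (edgeR adjusted p = 0.00218) and Tspan3, a tetraspanin (0.0172). Below both was St3gal4, a sialyltransferase that builds selectin ligands, at 18.2, 26.3 and 24.9 CPM in Id3+ eTR, 51.9, 61 and 69.2 in Id3- eTR and 63.6, 78 and 86.6 in Id3+ cTR (0.0132). In spleen St3gal4 stood at 61, 54.5 and 59.1 CPM in Id3+ eTR, inside the range of Id3- eTR (44.7 to 62.6) and below Id3+ cTR (82 to 82.6). The lymph node and spleen contrasts of St3gal4 were not called different (adjusted p = 0.148). Leaving out the lymph node Id3+ eTR library of mouse 84 or 87, or the lymph node Id3- eTR library of mouse 86, left 1 gene; leaving out the lymph node Id3+ eTR library of mouse 86 or the spleen Id3+ eTR library of mouse 84 gave 5.

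The largest upward contrasts arose in different ways, which the CPM values show. Il1r2, which encodes the decoy receptor for interleukin-1, had the largest among those named by rule, 4.53 ± 0.41 (edgeR adjusted p = 8.15e-06). Spleen Il1r2 stood at 55.3, 35.8 and 86.3 CPM in Id3+ eTR, at 172, 27.3 and 87.6 in Id3- eTR and at 0.65, 0.4 and 0 in Id3+ cTR. Lymph node Il1r2 stood at 331, 263 and 340 CPM in Id3+ eTR, at 234, 170 and 142 in Id3- eTR and at 0, 0.331 and 0 in Id3+ cTR. The effector populations overlapped in spleen, and in lymph node every Id3+ eTR library was above every Id3- eTR library, with an averaged difference of 0.04 ± 0.30. Behind the Id3+ cTR values stood 2 counts in spleen and 1 in lymph node. The ratio of Id3+ eTR to Id3+ cTR is 168 (95% counting interval 46.2 to 1390) in spleen. In lymph node it is 2640 (473 to 104000). The fitted contrast depends on edgeR's default prior count.

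Gucy1a1, a subunit of the soluble guanylate cyclase that nitric oxide activates, was instead highest in Id3+ eTR in every mouse and tissue. Spleen Gucy1a1 stood at 67, 37.4 and 45.1 CPM in Id3+ eTR, at 1.8, 5.18 and 0.348 in Id3- eTR and at 20.2, 22.4 and 4.32 in Id3+ cTR. Lymph node Gucy1a1 stood at 35.8, 44.1 and 37.7 CPM in Id3+ eTR, at 5.11, 0.365 and 2.14 in Id3- eTR and at 4.54, 1.32 and 1.78 in Id3+ cTR. Id3+ eTR overlapped neither population in either tissue, and the contrast was 3.49 ± 0.41 (edgeR adjusted p = 0.000101), though the stricter test stopped at the 0.0548 given above. Actg2, a smooth muscle actin whose reads could be shared with other actin genes, had a contrast of 3.39 ± 0.41 with both separate differences called (5.19 from Id3+ cTR and 1.59 from Id3- eTR). Actg2 lost its call with the mouse as a replicate block against Id3- eTR (adjusted p = 0.0672).

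Tdrp, named for testis development, lay between the others and near 0 in Id3- eTR. Spleen Tdrp stood at 37.2, 37.8 and 21 CPM in Id3+ eTR, at 0, 0.471 and 0 in Id3- eTR and at 43.6, 80.7 and 79.5 in Id3+ cTR. Lymph node Tdrp stood at 24.4, 12 and 10.7 CPM in Id3+ eTR, at 0 in all 3 Id3- eTR libraries and at 31.4, 88 and 80.2 in Id3+ cTR. It was below Id3+ cTR (-1.59, edgeR adjusted p = 0.0043) yet had a log2 contrast of 3.15 ± 0.45, and against the arithmetic mean that value turned to -0.59. Ier5l, Gprasp2, Art3 and Ptpn5, the others among the 10 highest beside Angptl2 and Tox2, had contrasts of 2.63, 2.60, 2.58 and 2.57 and were above Id3+ cTR without a call against Id3- eTR; Art3 belongs to the ADP-ribosyltransferases and Ptpn5 is a tyrosine phosphatase.

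The largest downward contrasts were mostly of genes high in Id3- eTR and low in both Id3+ populations. Prdm1 encodes Blimp-1, a repressor of transcription that is active in effector TR and drives interleukin-10. Spleen Prdm1 stood at 24.8, 16.7 and 25.3 CPM in Id3+ eTR, at 160, 184 and 219 in Id3- eTR and at 4.55, 20.8 and 24 in Id3+ cTR. Lymph node Prdm1 stood at 14.3, 13.5 and 7.96 CPM in Id3+ eTR, at 310, 288 and 320 in Id3- eTR and at 20.8, 9.59 and 16.7 in Id3+ cTR. Id3+ eTR and Id3+ cTR overlapped in lymph node and in spleen, their difference had an SE of 0.40 log2 units around 0, and Id3- eTR stood apart (contrast -1.94 ± 0.24, edgeR adjusted p = 0.000143).

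Gzmb, the cytotoxic protease granzyme B, was almost absent from Id3+ eTR, with at most 4.02 CPM in any of the 6 libraries, while Id3- eTR held 64.4, 103 and 116 CPM in spleen and 312, 251 and 310 in lymph node, and Id3+ cTR at most 10.4 (contrast -4.39 ± 0.76, edgeR adjusted p = 0.00316). Ccr2, a receptor for inflammatory chemokines, lay between 0.335 and 5.89 CPM in Id3+ eTR, between 257 and 499 in Id3- eTR and at most at 1.23 in Id3+ cTR (-3.54 ± 0.69, edgeR adjusted p = 0.00725). For both genes the low groups rest on few counts, and the calls were lost without the 3 libraries (contrasts of -3.17 and -3.31). Acpp, a secreted acid phosphatase, and Sytl2, which tethers secretory granules, were called below both separately, with contrasts of -2.30 and -1.02. Lgmn, Snx9, Agpat4 and Arl5a, between -1.37 and -1.03, were below Id3- eTR without a call against Id3+ cTR. Without the 3 libraries the calls of Ptpn5, Acpp and Lgmn were lost as well.

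**Figure D3:**
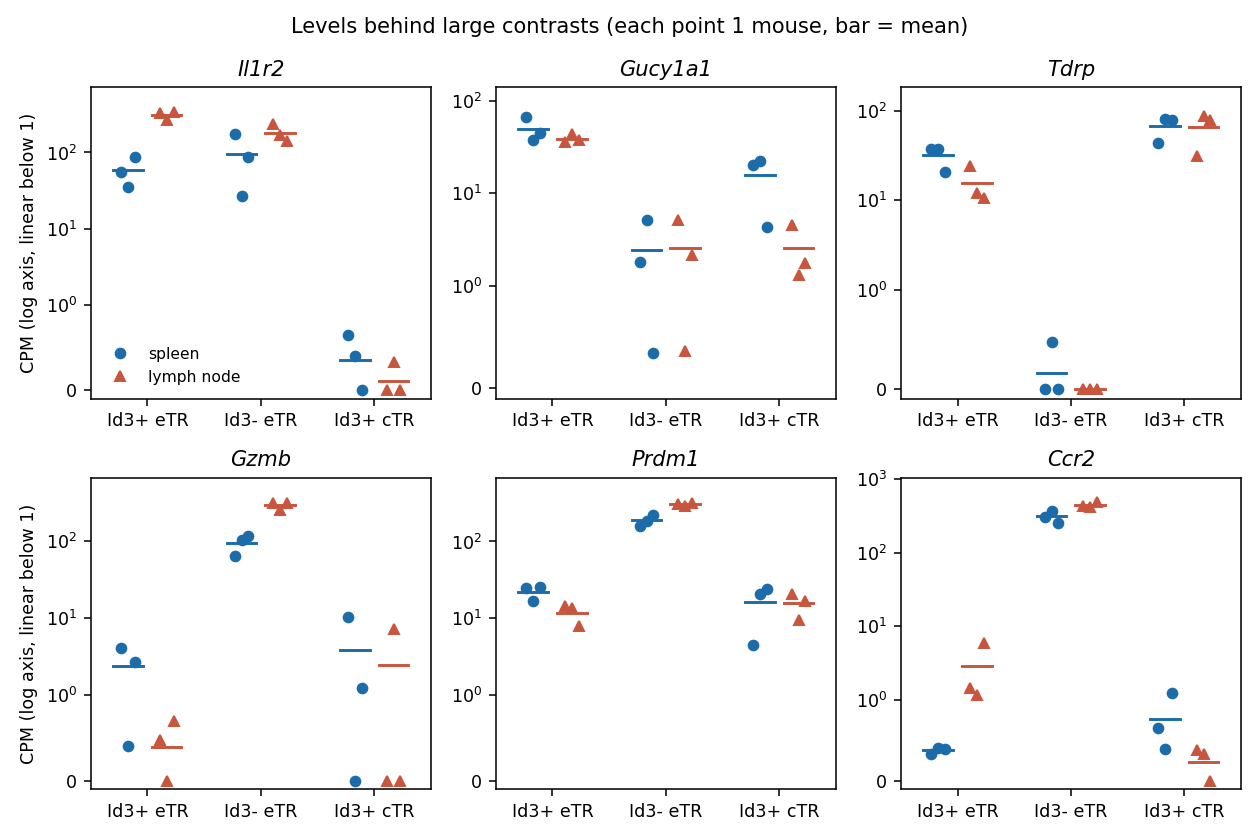
CPM (log axis, linear below 1) of 6 genes with large contrasts in Id3+ eTR, Id3- eTR and Id3+ cTR; circles are spleen, triangles lymph node, each point 1 mouse and each bar the mean of 3. Il1r2 is near 0 in Id3+ cTR only, Gucy1a1 is highest in Id3+ eTR, Tdrp is near 0 in Id3- eTR only, and Gzmb, Prdm1 and Ccr2 are high in Id3- eTR only.

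Lists and their members were chosen with earlier results of these data known, so the shares called in them are no independent support. Follicular TR genes gave the highest share of upward calls among the lists examined, some of which share members such as Pdcd1. Of 14 tested, 9 were higher in Id3+ eTR than the mean and none lower, beside 2.78% and 0.844% of all genes, with a median contrast of 1.20 (0.94 with the genes of a group at 0 set at their bound) against 0.03 for all genes. They were Cxcr5, Pdcd1, Tnfsf8, Sh2d1a, Angptl2, Tox, Tox2, Ascl2 and P2rx7. Of the 9, 6 were above Id3+ cTR without a call against Id3- eTR, 2 were above Id3- eTR without a call against Id3+ cTR, and Cxcr5 was above both. Without the 3 libraries 6 were called, and with the mouse as a replicate block Sostdc1 was called as well (adjusted p = 0.0194) and P2rx7 was called above Id3+ cTR (0.0365).

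Cxcr5 encodes the chemokine receptor that draws lymphocytes into B cell follicles. Spleen Cxcr5 stood at 246, 116 and 150 CPM in Id3+ eTR, at 86.3, 62.6 and 79.6 in Id3- eTR and at 57.9, 69.5 and 34.5 in Id3+ cTR. Lymph node Cxcr5 stood at 120, 140 and 128 CPM in Id3+ eTR, at 24.4, 95.3 and 37.4 in Id3- eTR and at 61.7, 38.7 and 13.8 in Id3+ cTR. Id3+ eTR were highest in both tissues without overlap, 1.71 log2 units above Id3+ cTR and 1.23 above Id3- eTR (edgeR adjusted p = 0.00275 and 0.0279), while the stricter test gave 0.488. Bcl6, the repressor that directs the follicular program, had a contrast of 1.08 ± 0.31 and was not called (adjusted p = 0.0669).

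Pdcd1 encodes the inhibitory receptor PD-1. Spleen Pdcd1 stood at 321, 144 and 205 CPM in Id3+ eTR, at 360, 196 and 277 in Id3- eTR and at 29.3, 40.8 and 36.4 in Id3+ cTR. Lymph node Pdcd1 stood at 227, 228 and 187 CPM in Id3+ eTR, at 227, 214 and 178 in Id3- eTR and at 43.5, 17.9 and 26.6 in Id3+ cTR. The Id3+ eTR and Id3- eTR libraries overlapped in both tissues, with a difference of -0.13 ± 0.20, and all Id3+ cTR libraries lay below them (contrast 1.31 ± 0.17, edgeR adjusted p = 0.00031).

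Tox2 and Tox, related nuclear factors of follicular helper and exhausted T cells, had contrasts of 3.15 ± 0.44 and 0.43 ± 0.06, and Ascl2, a factor that starts the follicular helper program, 3.50 ± 0.81 from at most 12 CPM. Ascl2 lost its call without the 3 libraries (adjusted p = 0.103). Angptl2, a secreted protein, had a contrast of 3.59 ± 0.68, but in spleen it stood at 94.8 CPM in Id3+ eTR of mouse 84 and at 7.73 and 8.16 in those of mice 86 and 87, against 43.1 to 58.6 in Id3- eTR and 0 in Id3+ cTR. Against the arithmetic mean its value was -0.05. Within tissues 1 of the 14 genes was called higher in spleen and 7 in lymph node, beside 0.538% and 1.41% of all genes. The difference between the tissues was not called for any.

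**Figure D4:**
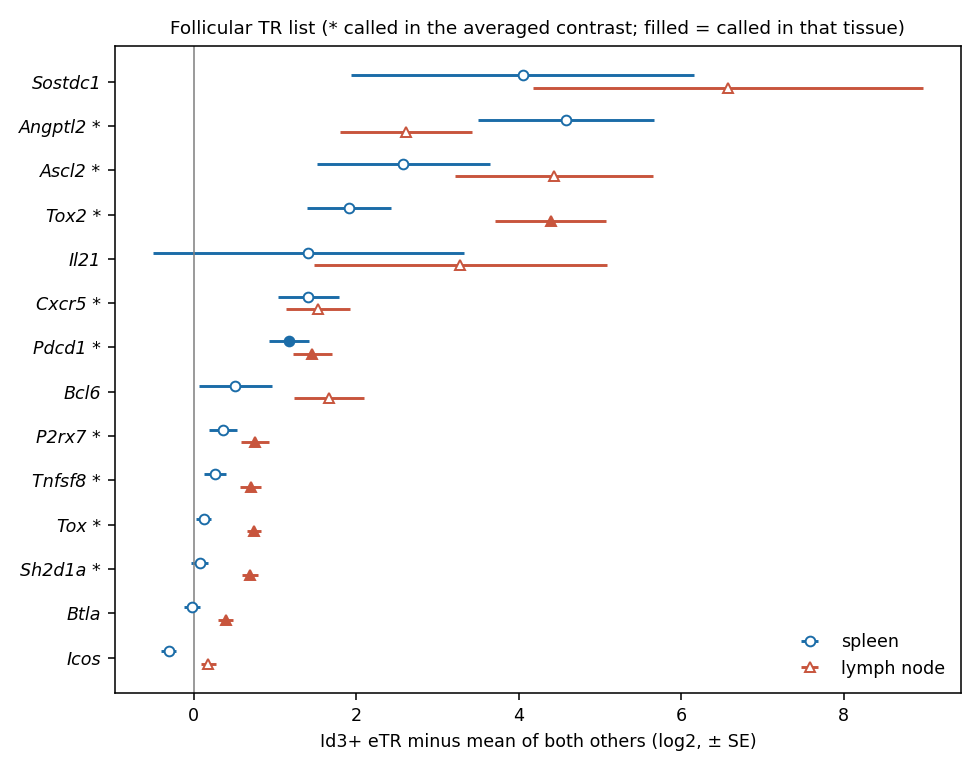
Contrast of Id3+ eTR with the mean of both others (log2, ± SE from the fit to all 18 libraries) for the 14 tested follicular TR genes in spleen (circles) and lymph node (triangles); filled symbols are called in that tissue and stars mark the 9 called averaged over the tissues. Every lymph node value is above 0, and in spleen Btla (-0.02) and Icos (-0.31) lie below 0.

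Markers of other cells that could enter a sort were set beside this list. Summed B cell markers (12 in the table, 9 tested, 0 called, none at 0 throughout) lay between 998 and 1340 CPM in Id3+ eTR, between 1140 and 1280 in Id3- eTR and between 777 and 1310 in Id3+ cTR. Of 8 conventional CD4 T cell markers tested, 3 were higher in Id3+ eTR than the mean (Ifng, Il4 and Igfbp4), beside 2.78% of all genes. Of these, Il4 and Igfbp4 were below the arithmetic mean of both others. The summed level of the conventional CD4 T cell markers lay between 497 and 558 CPM in Id3+ eTR, between 370 and 500 in Id3- eTR and between 648 and 773 in Id3+ cTR. In lymph node 4 of these 8 markers were higher and in spleen 1, beside 1.41% and 0.538% of all genes. Their part in the follicular result was not tested. Plasma cell, myeloid and dendritic, CD8 T and NK, and erythroid and platelet markers gave 0 calls in the averaged contrast. In lymph node 2 of the 7 CD8 T and NK markers were higher, beside 1.41% of all genes, Nkg7 by 1.21 ± 0.27 and Ccl5 by 2.24 ± 0.46 (edgeR adjusted p = 0.0307 and 0.0161), and the median over the 7 was 1.21 there and -0.75 in spleen. Their summed level lay between 118 and 414 CPM in Id3+ eTR, between 236 and 393 in Id3- eTR and between 62.8 and 173 in Id3+ cTR over both tissues, 1 of the 10 was at 0 in all libraries, and their part in the lymph node calls was not tested. No stromal or endothelial gene had enough counts to be tested.

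Of 16 genes induced through the T cell receptor 7 were higher and none lower, beside 2.78% and 0.844% of all genes, with a median contrast of 0.41. Nr4a2, an orphan nuclear receptor induced within hours of stimulation, and Spry1, a feedback inhibitor of Ras signaling, were above both populations when each difference was taken on its own. Spry1 stood at 152, 109 and 126 CPM in spleen Id3+ eTR, at 99.6, 99.3 and 76.5 in spleen Id3- eTR and at 41.6, 33.2 and 57.3 in spleen Id3+ cTR. It stood at 150, 131 and 167 CPM in lymph node Id3+ eTR, at 59.3, 114 and 82.3 in lymph node Id3- eTR and at 72.3, 65.1 and 81.7 in lymph node Id3+ cTR. Id3+ eTR overlapped neither population in either tissue, with a contrast of 0.97 ± 0.14 (edgeR adjusted p = 0.000424).

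Egr2, a factor of anergy and tolerance, Cd83, a marker of activated lymphocytes, and Tnfrsf9, a costimulatory receptor, were above Id3+ cTR and not called against Id3- eTR, with contrasts of 1.29, 0.88 and 0.43. Myc, a driver of growth, was below Id3+ cTR and above Id3- eTR, with a contrast of 0.39. Nr4a1, Egr1 and Cd69, early genes of the same response, had contrasts of 0.05, 0.62 and -0.17 and were not called. Neither Nr4a2 nor Myc was called against Id3+ cTR with the mouse as a replicate block (adjusted p = 0.0536 and 0.0526). Without the 3 libraries 4 of the 16 were called, and likewise 4 without the spleen Id3+ eTR library of mouse 84 or the lymph node Id3+ eTR library of mouse 86.

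Effector TR genes were called in both directions, 8 higher and 5 lower of 26, beside 2.78% and 0.844% of all genes, with a median contrast of 0.22. The higher ones were Tigit, Cxcr3, Ccr4, Maf, S100a4, Ebi3, Pdcd1 and Tnfrsf9. Tigit, an inhibitory receptor, lay between 72 and 195 CPM in Id3+ eTR, between 245 and 306 in Id3- eTR and between 0.661 and 4.92 in Id3+ cTR. Cxcr3, a chemokine receptor, lay between 110 and 173 CPM in Id3+ eTR, between 244 and 445 in Id3- eTR and at most at 9.08 in Id3+ cTR. Tigit and Cxcr3 lay between the others without overlap, above the mean on the log2 scale (2.07 and 1.80) and below the arithmetic mean (-0.26 and -0.33). Ccr4, a chemokine receptor, Maf, a factor that drives interleukin-10, and S100a4, a calcium-binding protein, likewise lay between the others and below the arithmetic mean (-1.13, -0.82 and -1.24). The 5 lower genes were Prdm1, Gzmb, Ccr2, Ikzf3 and Lgals1, and all 5 were below Id3- eTR with no call against Id3+ cTR. Without the 3 libraries 7 were higher and 2 lower.

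Of 24 homing receptors 8 were higher and 2 lower, beside 2.78% and 0.844% of all genes, with a median contrast of 0.18. With the mouse as a replicate block Gpr15 was not called (adjusted p = 0.0501) and Ccr8 was (0.0169). Beside Cxcr5 and Cxcr3 the higher ones were Ccr4, Ccr6, Gpr15, Itgal, Itgb1 and Itgb8, and the lower ones were Ccr2 and Selplg, the selectin ligand PSGL-1. Itgb1, the beta chain shared by many integrins, was at 0.92 ± 0.07 (edgeR adjusted p = 1.94e-06), with 438, 329 and 379 CPM in spleen Id3+ eTR, 444, 463 and 416 in spleen Id3- eTR and 116, 146 and 108 in spleen Id3+ cTR. Of 19 tissue TR genes 3 were higher (Il9r, Ccr6 and Il1r2) and none lower, beside the same shares of all genes, and with the block Ccr8 and Penk (0.0424) were called as well. Il9r, the receptor for interleukin-9, had a contrast of 3.21 ± 0.47, and against the arithmetic mean it was -0.23.

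Of 17 core TR genes 5 were higher and 1 (Socs2) lower, beside 2.78% and 0.844% of all genes, with a median contrast of 0.09. Nrp1, a semaphorin co-receptor of thymic TR, was above both populations with each difference on its own, at 0.80 ± 0.05 (edgeR adjusted p = 6.04e-07). Lymph node Nrp1 stood at 587, 624 and 589 CPM in Id3+ eTR, clear of 431, 464 and 427 in Id3- eTR and 221, 236 and 185 in Id3+ cTR. Spleen Nrp1 stood at 497, 444 and 429 CPM in Id3+ eTR, 454, 446 and 407 in Id3- eTR and 191, 203 and 203 in Id3+ cTR, with overlap between the effector populations. Lrrc32, which displays latent TGF-beta on TR, was above Id3- eTR and not called against Id3+ cTR (contrast 0.96 ± 0.16). Among 15 genes of suppressive function 5 were higher, led by Tigit and Ebi3, a subunit of interleukin-35, and Gzmb alone was lower. The median contrast of the 15 was -0.01, and their median difference was 1.21 from Id3+ cTR and -0.82 from Id3- eTR.

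Of 20 central and recirculating T cell genes 3 were higher (Ccr7, Tcf7 and Igfbp4) and 3 lower (S1pr1, Satb1 and Rasgrp2), beside 2.78% and 0.844% of all genes and with a median contrast of 0.18, and 3 were called in all without the spleen Id3+ eTR library of mouse 87. With the mouse as a replicate block S1pr1 and Satb1 were not called (adjusted p = 0.052 and 0.0667) and Bach2, a repressor of effector programs, was (0.0447). Ccr7, which guides entry to lymph nodes, stood at 410, 397 and 351 CPM in spleen Id3+ eTR, 103, 115 and 69.5 in spleen Id3- eTR and 633, 557 and 639 in spleen Id3+ cTR. S1pr1, which guides exit from them, stood at 491, 423 and 352 CPM in spleen Id3+ eTR, 220, 286 and 233 in spleen Id3- eTR and 752, 616 and 707 in spleen Id3+ cTR. In lymph node S1pr1 stood at 224, 256 and 282 CPM in Id3+ eTR, 247, 273 and 252 in Id3- eTR and 616, 611 and 663 in Id3+ cTR. The S1pr1 contrast was 0.04 in spleen and -0.66 in lymph node (edgeR adjusted p = 0.0044), and their difference was not called (adjusted p = 0.221). Ccr7 was 0.67 ± 0.09 above the mean and lay between the others in spleen. Tcf7, a factor of memory and stem-like T cells, was above Id3- eTR and not called against Id3+ cTR (0.66 ± 0.09, edgeR adjusted p = 0.000284).

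Smaller counts were found elsewhere, beside 2.78% of all genes called higher and 0.844% called lower. Where only 1 gene of a list of 18 to 21 was called in a direction, that is too few to be a result about the list. Helper lineage genes were higher for 3 of 12 (Ifng, Il4 and Cxcr3) and TNF receptor and NF-kB genes for 3 of 20 (Tnfrsf8, Tnfrsf9 and Nfkb2). Of 25 cytokine receptor and STAT5 genes, Il1r2 and Bcl2, which holds off cell death, were higher, and Socs2, a feedback inhibitor of cytokine signaling, was lower. Il4 lay between 3.66 and 9.69 CPM in Id3+ eTR, between 6.59 and 24.3 in Id3- eTR and at 0 in all Id3+ cTR libraries, so that Id3+ eTR were at least 8.71-fold higher than Id3+ cTR in spleen, and in lymph node at least 19.1-fold higher (floor of 3 counts over the group, counting error only). Fasl, a ligand that triggers cell death, was lower (-0.66). Of 18 chromatin regulators Hdac7 was higher and Satb1 lower, and of 21 sterol and fatty acid genes Scd2 was higher. Klf6, a zinc finger factor, was lower among 21 dissociation stress genes, and Myc was the call among 19 Myc and ribosome genes. Of those Odc1 was also called with the mouse as a replicate block (adjusted p = 0.0218). Calls lost without the 3 libraries were those of Myc, Nfkb2, Scd2, Klf6, Fasl (adjusted p = 0.132), Hdac7 (0.0885) and Satb1 (0.171).

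In the averaged contrast no gene was called among 19 of DNA replication, 20 of mitosis, 16 of glycolysis, 24 of the interferon response, 20 of antigen receptor signaling and 18 of the respiratory chain. Their median averaged contrasts lay between -0.09 and 0.16, beside 0.03 for all genes. For the mitosis genes the median was -0.69 in spleen and 0.55 in lymph node, and 1.34 against Id3+ cTR and -2.16 against Id3- eTR. Within lymph node Ptpn22, a phosphatase that restrains antigen receptor signaling, was higher (0.35 ± 0.09, edgeR adjusted p = 0.0456, or 0.0577 with the mouse as a replicate block).

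**Figure D5:**
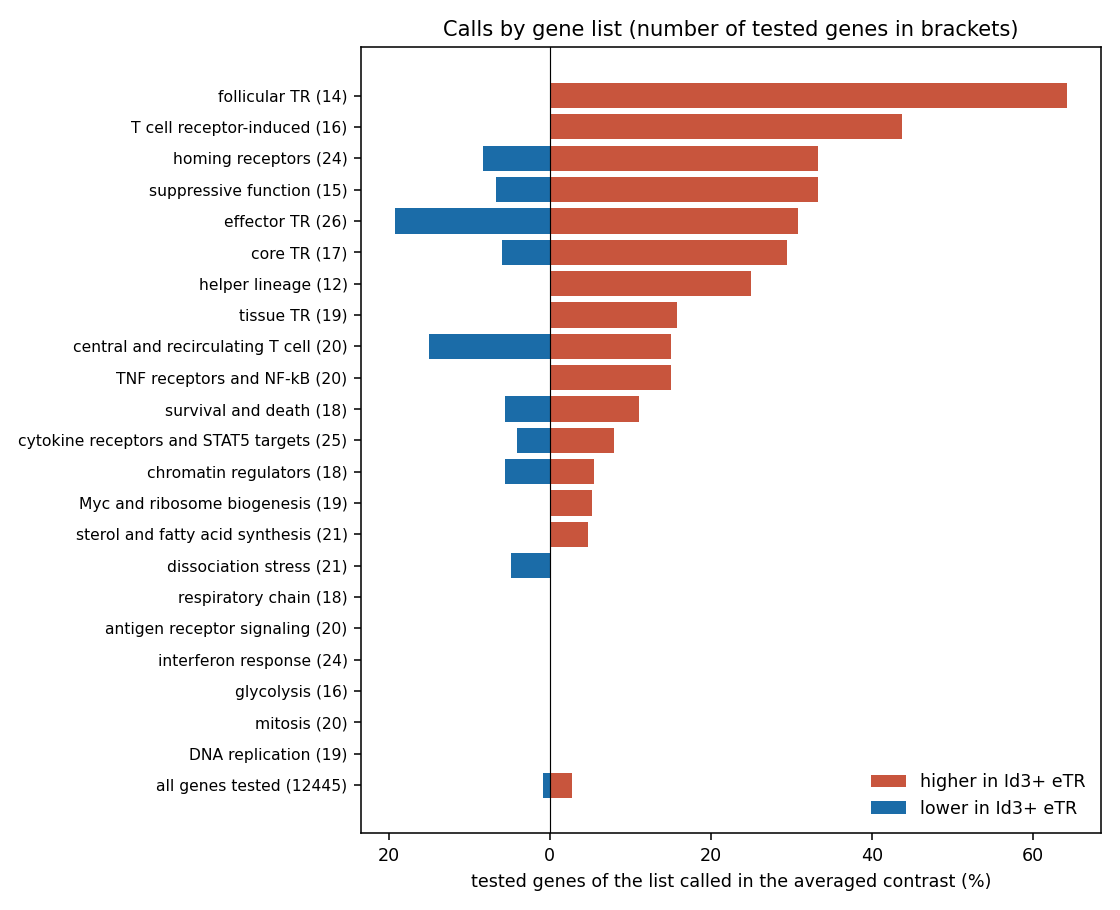
Percent of the tested genes of each list called higher (red, to the right) or lower (blue, to the left) in Id3+ eTR than the mean of both others, averaged over the tissues, with all 12445 genes in the bottom bar. Follicular TR (9 of 14) and T cell receptor-induced genes (7 of 16) have the highest shares upward with none lower, and effector TR and central T cell genes have calls both ways. Lists and members were chosen with earlier results of these data known.

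Within spleen 67 genes were higher (0.538%) and 7 lower (0.0562%), 0.595% together. Within lymph node 175 were higher (1.41%) and 44 lower (0.354%), 1.76% together. Called higher in both tissues were 40 genes, which is 59.7% of the spleen calls and 22.9% of the lymph node calls, and 2 were lower in both (28.6% and 4.55%). Of the spleen higher genes 62 of 67 had the same sign in lymph node, and of the lymph node higher genes 163 of 175 had the same sign in spleen, while 54.8% and 52.9% of all genes are positive in spleen and in lymph node. For the lower genes of lymph node it was 30 of 44. The test of lymph node minus spleen called 0 genes by edgeR (1010 at an unadjusted p under 0.05), 38 by DESeq2 and 0 by limma-voom, so a difference in the counts per tissue is no evidence that genes differ between them.

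The spleen count rested on few libraries. It was 31 without the spleen Id3+ eTR library of mouse 84, 34 without the spleen Id3+ cTR library of mouse 87, 44 without the spleen Id3- eTR library of mouse 87, 113 without the spleen Id3+ eTR library of mouse 87 and 4 without the 3 libraries together. In lymph node the count was 126, 141 or 122 without the Id3+ eTR library of mouse 84, 86 or 87.

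Among the genes named, calls in the averaged contrast also rested on single libraries. Gzmb lost its call (highest adjusted p = 1) without the spleen Id3+ cTR library of mouse 84 or the lymph node Id3+ cTR library of mouse 86, and Ccr2 (0.0623) without the lymph node Id3+ cTR library of mouse 84 or 86. Egr2 (0.0541) and Myc (0.0864) lost theirs without the spleen Id3+ eTR library of mouse 84 or the lymph node Id3+ eTR library of mouse 86, Nfkb2 (0.0823) without the first of these or the lymph node Id3+ eTR library of mouse 87, and Ascl2 (0.0753) and Klf6 (0.0941) without any 1 of those 3. Acpp (0.075) lost it without the lymph node Id3+ eTR library of mouse 86 or 87, and Lgmn (0.0599) without the Id3+ eTR library of mouse 84 in either tissue or of mouse 86 in spleen. Snx9, Hdac7, Fasl, Scd2 and Satb1 were near the threshold and lost their calls in 6, 10, 10, 13 and 15 of the 18 cases. By limma-voom the adjusted p of the averaged contrast was 0.104 for Angptl2, 0.0506 for Tdrp, 0.0654 for Gzmb, 0.0536 for Acpp, 0.0511 for Snx9, 0.0896 for Ascl2, 0.0824 for Il4, 0.0775 for Fasl and 0.0761 for Satb1, none of them a call. By the additive model it was 0.107 for Acpp, 0.17 for Myc and 0.368 for Satb1.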

How the data were processed

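RNA from 500 sorted cells per library was amplified with SMART-Seq v4 and tagged with a modified Nextera XT protocol, per the labels' protocols. The values are raw counts per gene, as deposited by the authors, for all 18 libraries in 1 table. Per the submitters' processing notes, the tools included HTSeq 0.4.1, TopHat with Bowtie, SAMtools, Picard and FastQC, and the genome build and strand setting are not given in the sources used here. A second, normalized table was not used here.

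Genes passing edgeR's filterByExpr (minimum count 10) were kept, 12445 of 37991. Genes with no symbol held 0.891% of the counts. A model with 6 groups of tissue and population was fitted to all 18 libraries with edgeR 4.0.16 in R 4.3.3 (TMM normalization, robust quasi-likelihood test, 12 residual degrees of freedom, biological coefficient of variation 0.294). Contrasts were Id3+ eTR minus the mean of Id3- eTR and Id3+ cTR in each tissue, averaged, and lymph node minus spleen. For genes outside both populations the larger p of the separate tests was used where both differences had the same sign. p-values were Benjamini-Hochberg adjusted over all genes tested, with a threshold of 0.05, and adjusted p-values in the text come from edgeR unless another tool is named. Each SE is the size of the fitted log2 contrast divided by the square root of its F statistic. It is thus approximate, most so for contrasts near 0 and groups with few counts. The median SE of the averaged contrast was 0.19. A prior count of 2 enters log2 CPM per library and not the fitted contrasts, which use edgeR's default prior count. Intervals (95%) and floors (3 counts over a group) cover counting error only. The code was tested on simulated data.

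Genes were named by rule: the sort genes, the 10 highest and 10 lowest averaged contrasts among called genes with the same sign in all 6 mouse and tissue sets and a mean log2 CPM of at least 3, up to 10 genes each way outside both populations, and up to 2 called members of each list. For the genes outside both populations the rule asked for the same mean log2 CPM. It also asked for Id3+ eTR to lie outside both other libraries of its mouse and tissue in all 6 sets. Some items that the rule names are not reported here. Other genes were chosen after their values were seen. Members and lists were chosen with earlier results of these data known.

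Equal mouse numbers mark the same animal, so they pair the libraries. Deviations from the group means had a median correlation of 0.02 between libraries of the same mouse (range -0.03 to 0.08) and of -0.01 between different mice (-0.08 to 0.07). Alternatives were limma-voom (limma 3.58.1), DESeq2 1.42.0, other size factors and filters, an additive model, each tissue alone and the mouse as a block. The arithmetic mean of both others was also used. Single libraries were left out in turn, and so were the 3 spleen libraries with a wide spread or low totals together.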

Additional observations from a re-analysis of the deposited data

Results flagged for a closer look

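Satb1, a chromatin organizer of T cells, was flagged because its contrast pointed opposite ways in the tissues in every mouse. In lymph node it stood at 150, 157 and 195 CPM in Id3+ eTR, at 134, 130 and 97.3 in Id3- eTR and at 611, 657 and 685 in Id3+ cTR. In spleen it stood at 331, 325 and 328 CPM in Id3+ eTR, at 110, 120 and 109 in Id3- eTR and at 730, 686 and 869 in Id3+ cTR. Lymph node Id3+ eTR were thus below the mean of both others on the log2 scale (-0.74, edgeR adjusted p = 0.00157), and spleen Id3+ eTR were at 0.16 (adjusted p = 0.488). Lymph node minus spleen was -0.90, with 3 of 3 mice on each side, and was not called (edgeR adjusted p = 0.148).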

How the results depend on the processing

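The averaged contrast kept its count within 1.5 times of 451 under every alternative except DESeq2 (713), at 326 to 463 genes when single libraries were left out. DESeq2 also called 337 genes in spleen, 417 in lymph node, 38 for lymph node minus spleen, 37, 1 and 23 outside both populations averaged, in spleen and in lymph node, and 41 below both with each difference on its own. limma-voom called 46 in spleen and 7 outside both in lymph node. With no filter 11 genes were outside both averaged, 6 in lymph node, and 14 below both with each difference on its own. With the mouse as a replicate block 1 gene, Tbc1d4, was outside both averaged, 395 of the 451 averaged calls were shared, and 40 of the 50 genes above both. The additive model gave 2 outside both and 4 T cell receptor-induced genes, and each tissue alone gave 14 genes in spleen and 1 outside both in lymph node. Without the 3 libraries that stand apart there were 4 genes in spleen, 1 outside both, 26 above both with each difference on its own and 4 T cell receptor-induced genes. Leaving out single libraries gave 31 to 113 genes in spleen, 122 to 299 in lymph node, 0 to 2 for lymph node minus spleen, 1 to 8 outside both averaged, 1 to 5 in lymph node, 30 to 51 above both, 13 to 30 below both, 4 to 8 T cell receptor-induced and 3 to 7 central T cell genes. Against the arithmetic mean of both others the sign turned for 7 of the called genes named by rule. They were Angptl2 (-0.05), Tdrp (-0.59), Igfbp4 (-0.48), Il9r (-0.23), Cxcr3 (-0.33), Tigit (-0.26) and Il4 (-0.36). For 14 more genes named by rule the value moved by at least the SD over the 6 mouse and tissue sets. Foxp3, at -0.02, ranged from -0.13 to 0.05 when single libraries were left out. The cause of these changes was not tested. Tissue-alone fits give no averaged value. Genes near 0 in a population rest on few counts, which limits their fold.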

Other observations

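Other genes were above both populations with each difference taken on its own, though not by the stricter test. They are named after their values were seen. Lrmp, a membrane protein of lymphocytes, stood at 371, 249 and 316 CPM in spleen Id3+ eTR, at 197, 190 and 198 in spleen Id3- eTR and at 226, 253 and 252 in spleen Id3+ cTR. In lymph node it stood at 326, 336 and 351 CPM in Id3+ eTR, at 231, 224 and 237 in Id3- eTR and at 241, 245 and 218 in Id3+ cTR. Id3+ eTR stood clear of both in lymph node and overlapped Id3+ cTR in spleen. Cd200, an inhibitory ligand, and Cd160, a receptor of the same HVEM network as Btla, had contrasts of 0.69 ± 0.10 and 1.39 ± 0.25, and Slamf7, a self-binding receptor of activated lymphocytes, 1.88 ± 0.29. Wnt10a, a secreted Wnt ligand, was at 2.93 ± 0.40, from low counts. Below both with each difference on its own were Ppp3ca, a catalytic subunit of calcineurin (-0.76 ± 0.14), Pde4b, which degrades cyclic AMP (-0.34 ± 0.06), and Hsd11b1, which regenerates active glucocorticoid (-0.43 ± 0.07).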
